A study of Mus musculus with 6 samples.

Results

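The genes described here are 10 members of the intermediate filament family out of 35275 gene IDs in the read count table. They were the rows whose Ensembl ID maps to Krt7, Krt8, Krt18, Krt19, Krt80, Vim, Nes, Synm, Lmna and Lmnb1, and each symbol matched a single row. These genes were proposed with the difference between the treatments already known, so their values are a description and no test of them is read as a finding. The RNA came from Melb-a cells, an immortal melanoblast line from skin labelled C57BL/6J. For 48 h, 3 cultures received 10 µM iBRD9, an inhibitor of the bromodomain of the SWI/SNF subunit BRD9, and 3 received the vehicle DMSO. Both groups were in DMEM with 10% serum, 2 nM NDP-alpha MSH, which activates the melanocortin receptor, and 200 nM of the phorbol ester phorbol-myristate-acetate, so no group shows the cells before differentiation medium. A single line, compound and dose were used, so the part of BRD9 itself and of any other target cannot be told apart.

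Intermediate filaments are rope-like protein polymers that give cells and nuclei mechanical strength. Keratins form filaments only as pairs of a type I and a type II chain, and are typical of epithelia. Vimentin filaments are typical of mesenchymal and neural crest derived cells, melanocytes among them, and take up nestin and synemin, which do not build filaments well alone. Lamins line the inside of the nuclear envelope, where A-type and B-type lamins form separate networks.

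The libraries held 22846391 to 29680952 counts. Over all genes, 8262 of 13602 tested genes were called by edgeR's quasi-likelihood test at an adjusted p under 0.05, which is 60.7%, with 4057 higher and 4205 lower with iBRD9. With no TMM scaling the calls were 4999 higher and 3385 lower, and the median fold change was shifted up by 0.106 on the log2 scale. Among the DMSO libraries replicate 1 was the odd one out, with a chi-square per degree of freedom of 29.2 and 37.5 against them, against 3.06 between those libraries. The 7 melanocyte markers summed to 14732 to 16227 CPM (read counts relative to the library's total, after TMM scaling) with iBRD9 and 15315 to 17573 CPM with DMSO, of which 1 was called higher and 4 lower (median log2 fold change -0.62). The pigment enzyme gene Tyr fell to 87.8 ± 3.72 CPM with iBRD9, against 537 ± 14.5 CPM with DMSO (-2.61). Sox10 (-0.92), Tyrp1 (-0.66) and Mlana (-0.62) fell too, while Dct rose (0.31). These marker genes were named after their values were seen, and their part in the members' values was not tested. Of the 9 keratinocyte markers, Krt5, Krt1, Ivl and Lor had 0 counts in every library, and Krt14, Trp63 and Dsg3 had at most 2. Krt10 (3.88 CPM with iBRD9 and 3.83 CPM with DMSO) and Sfn (5.01 CPM with iBRD9 and 4.56 CPM with DMSO) had reads in every library.

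The promoters of 3 members with clear RNA differences are shown for the letters next to their start sites: Krt7 and Nes were higher with iBRD9 and Vim was lower. Each is the 250 bases before the transcription start, read 5′ to 3′ on the gene's strand, from RefSeq with build GRCm38.p6. They lie at chr15:101412153-101412402 (plus strand), chr3:87970843-87971092 (plus strand) and chr2:13574061-13574310 (plus strand). Capitals mark matches on either strand to GGGCGG, the core of the GC box, or to TATAAA, the TATA box.
Krt7: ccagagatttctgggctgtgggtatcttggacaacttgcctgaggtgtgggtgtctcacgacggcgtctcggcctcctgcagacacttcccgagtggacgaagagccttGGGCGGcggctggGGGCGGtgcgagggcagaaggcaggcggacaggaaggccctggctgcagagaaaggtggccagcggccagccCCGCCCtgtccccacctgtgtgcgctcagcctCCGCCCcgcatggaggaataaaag
Nes: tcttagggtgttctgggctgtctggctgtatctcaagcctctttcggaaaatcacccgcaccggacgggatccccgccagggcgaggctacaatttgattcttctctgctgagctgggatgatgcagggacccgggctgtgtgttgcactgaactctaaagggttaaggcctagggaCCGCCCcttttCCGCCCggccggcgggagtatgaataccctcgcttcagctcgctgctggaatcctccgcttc
Vim: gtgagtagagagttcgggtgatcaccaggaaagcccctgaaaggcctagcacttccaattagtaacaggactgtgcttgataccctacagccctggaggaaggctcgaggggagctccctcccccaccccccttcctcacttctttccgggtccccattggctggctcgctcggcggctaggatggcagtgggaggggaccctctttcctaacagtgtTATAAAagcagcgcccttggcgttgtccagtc
The Krt7 window held 4 matches to GGGCGG, which start at -141, -128, -56 and -24 from the transcription start, and Nes held 2, at -73 and -62. Vim held a TATAAA at -32 and no GGGCGG. Of 32851 such promoter windows in the table, 32.7% held GGGCGG and 12.4% held TATAAA. The AP-1 motif TGANTCA, whose binding factors phorbol esters activate, was in 6.75% of windows. It was in none of the windows of the 7 members that were searched (0 matches). Promoters of the remaining members were not searched, so nothing is said of their motifs. None of the motifs overlapped another in the windows shown. The windows of Krt8, Krt18 and Synm had no match to any of the motifs, and Lmna has 2 listed starts, of which 1 window held a single GGGCGG.

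Keratin 7 (Krt7, ENSMUSG00000023039), a type II keratin of simple and glandular epithelia, had the largest difference of the members. It had 7.37, 7.32 and 7.18 CPM in the iBRD9 libraries and 0.651, 0.276 and 0.379 CPM in the DMSO libraries. The iBRD9 libraries lay in a narrow band far above every DMSO library. In raw counts these are 227, 183 and 170 reads with iBRD9 and 15, 7 and 9 with DMSO, so Krt7 was near the detection floor with vehicle, taken here as a mean under 1 CPM, and it passed the filter on low counts through its iBRD9 libraries. The fitted log2 fold change was 4.07 (SE 0.234). Of all 3 DMSO libraries, DMSO replicate 1 was the highest, and without it the value was 4.46. In bulk RNA, more cells with Krt7 and more Krt7 RNA per cell cannot be told apart, which holds for every gene here.

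Keratin 80 (Krt80, ENSMUSG00000037185), a type II keratin of many epithelia that is laid down near desmosomes, was the keratin with the most reads in DMSO. It stood at 7.57, 7.68 and 6.92 CPM with iBRD9 and 4.08, 4.10 and 5.06 CPM with DMSO. All iBRD9 libraries were above all DMSO libraries, and the log2 fold change was 0.74 (SE 0.131). Krt80 was well above the floor with vehicle, with 94 to 120 reads in each DMSO library.

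The classic simple epithelial keratins were at the floor in both groups. Keratin 8 (Krt8, ENSMUSG00000049382), a type II keratin of simple epithelia, had 1, 3 and 3 reads with iBRD9 and 0, 2 and 2 with DMSO. Its usual type I partner keratin 18 (Krt18, ENSMUSG00000023043) had 2, 1 and 5 reads with iBRD9 and 1, 1 and 2 with DMSO. Keratin 19 (Krt19, ENSMUSG00000020911), the smallest type I keratin, had 0 reads in all 6 libraries. The groups overlapped for Krt8 and Krt18, these 3 genes did not pass the filter on low counts, and no fold change is given for them. Over the group, Krt8 was at 0.0913 CPM with iBRD9 (exact Poisson 95% interval 0.0367 to 0.188) and 0.0534 CPM with DMSO (0.0145 to 0.137), before scaling by TMM. For Krt18 the values were 0.104 CPM with iBRD9 (0.0451 to 0.206) and 0.0534 CPM with DMSO (0.0145 to 0.137). Taken as up to 3 reads over the group, a count of 0 allows up to 0.0391 CPM of Krt19 with iBRD9 and 0.0400 CPM with DMSO. These intervals and limits cover counting error only. Krt8 and Krt18 have processed pseudogenes, so their counts are uncertain where reads were shared with a copy. With vehicle, Krt7, Krt8, Krt18 and Krt19 were therefore the members near the floor.

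**Figure D1:**
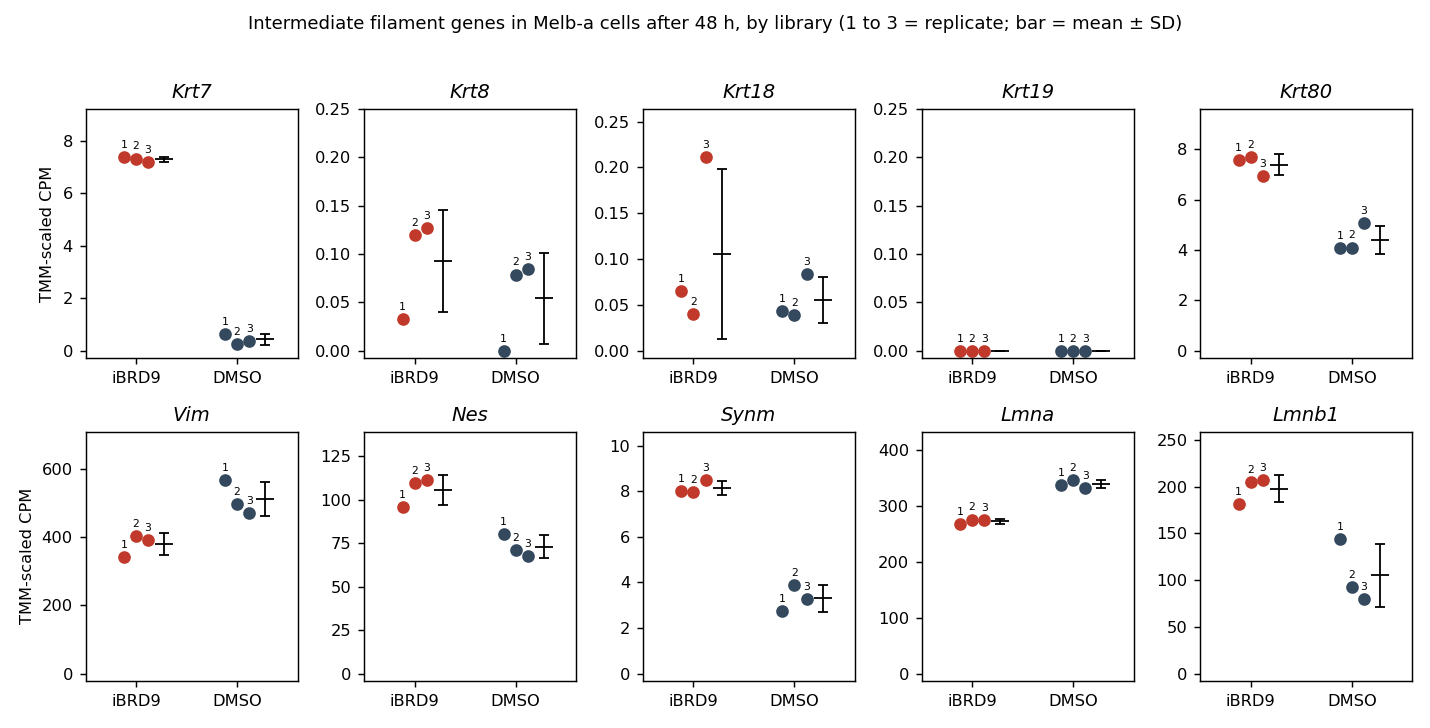
TMM-scaled CPM of the 10 intermediate filament genes in each library (points, numbered by replicate; iBRD9 in red, DMSO in dark blue), with the mean ± SD of 3 libraries beside them and each gene on its own linear axis. Krt7 sits at 7.18 to 7.37 CPM with iBRD9 and at 0.276 to 0.651 CPM with DMSO, while Krt8, Krt18 and Krt19 stay under 0.25 CPM in every library.

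Across the whole keratin family, 34 of 54 genes had no read in any library, and the rest were dominated by 3 genes. The summed type II keratins were at 15.4, 15.7 and 14.7 CPM with iBRD9 and 4.99, 4.85 and 5.69 CPM with DMSO. Krt7 and Krt80 made up 96.2% of those type II reads with iBRD9 and 93.6% with DMSO. Their balance differed: Krt7 was 47.7% of type II reads with iBRD9 and 8.31% with DMSO, and Krt80 was 48.5% with iBRD9 and 85.3% with DMSO. The summed type I keratins were at 4.97, 4.12 and 4.77 CPM with iBRD9 and 4.47, 4.14 and 3.75 CPM with DMSO, so the groups overlapped. They did not overlap for the type II sum, nor in 68% of all tested genes. That type II sum was nearly all Krt7 and Krt80, which were chosen on this contrast. Nothing is therefore read from the difference between the types.

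Of the 49 keratins that are not members, 16 had a read and 1 passed the filter on low counts. That gene, Krt10, a type I keratin of the upper epidermis, gave 84.3% of type I reads with iBRD9 and 92.9% with DMSO. It averaged 3.88 ± 0.393 CPM with iBRD9 and 3.83 ± 0.314 CPM with DMSO (SD, n = 3) and was not called (log2 fold change 0.02, SE 0.146, edgeR adjusted p = 0.899). The count of other keratins called was thus 0, with none at an unadjusted p under 0.05, and 0 with DESeq2. Krt17, a type I keratin of hair follicles and wounded skin that was chosen after its values were seen, had 6, 7 and 8 reads with iBRD9 and 0 in each DMSO library. Against a floor of 3 reads over the DMSO group it was 6.84-fold higher with iBRD9, with no allowance for counting error in the iBRD9 reads. Krt17 was too low for the filter, and its reads lay in the iBRD9 libraries alone, so no test of it is read. Krt78 (2, 1 and 3 reads with iBRD9) and Krt88 (1, 4 and 1) likewise had 0 in each DMSO library.

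**Figure D2:**
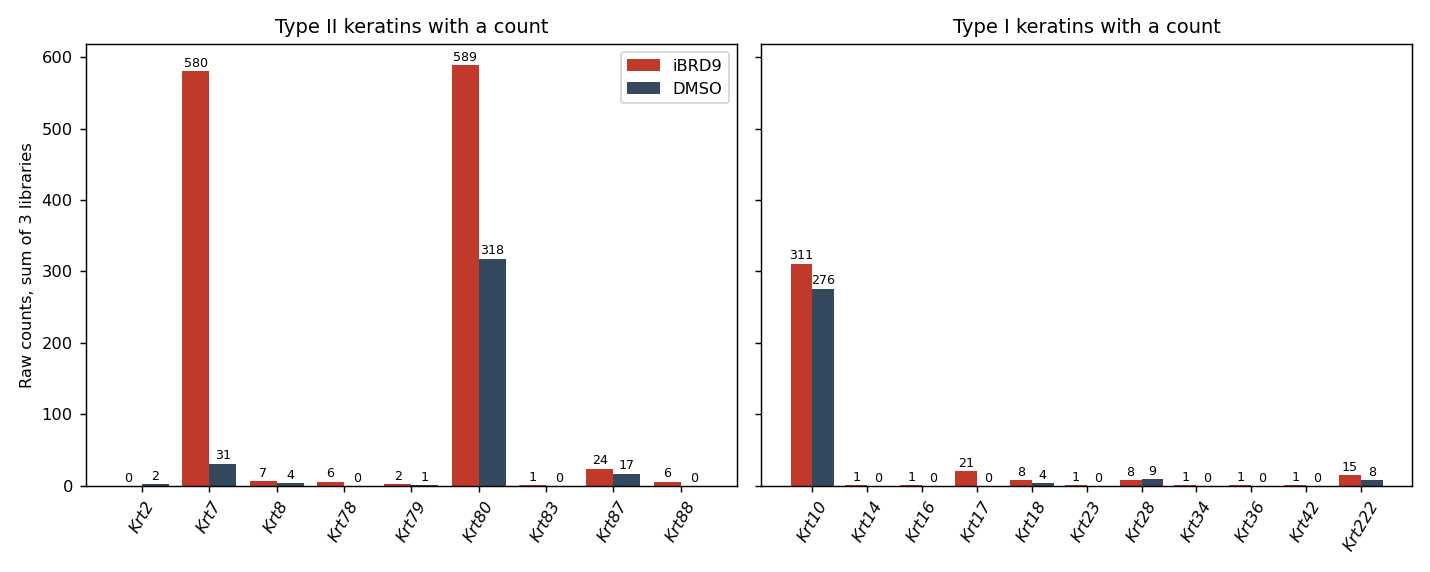
Raw counts summed over 3 libraries for every type II keratin (left) and type I keratin (right) that had a read, with iBRD9 in red and DMSO in dark blue on a linear axis from 0. Krt7 holds 580 reads with iBRD9 and 31 with DMSO, Krt80 holds 589 with iBRD9 and 318 with DMSO, and Krt10 is the sole type I keratin with more than 21 reads in a group.

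Krt80 directly precedes Krt7 on chromosome 15 in RefSeq's order of protein-coding genes (GRCm38.p6), and type II hair keratin genes follow Krt7. The neighbours were looked at after their values were seen. Among the 8 other matched genes within 10 positions on the Krt80 side, 7 were tested, of which 4 rose, 2 fell and 1 was not called, beside 60.7% called over all genes. Nr4a1, a nuclear receptor gene of the immediate early response, rose (1.05, SE 0.155, adjusted p = 0.000605), while Acvrl1, a receptor of the TGF-beta family, fell (-1.57, SE 0.112, adjusted p = 1.75e-05). On the other side none of 10 genes passed the filter (0 tested) and 7 had no read, with Krt87 the highest at 24 reads with iBRD9 and 17 with DMSO.

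By the root mean square difference of log2 CPM over the 6 libraries, each gene centred on its own mean, the tested genes near Krt7 included Col7a1 and H19. They were taken from 9967 candidates whose average log2 CPM reached 2. The distances were 0.228 for Col7a1, the collagen of the anchoring fibrils under the epidermis, and 0.291 for H19, an imprinted noncoding RNA. Col7a1 stood at 18.6, 16.8 and 20.3 CPM with iBRD9 and 1.87, 1.18 and 0.927 CPM with DMSO, so its DMSO replicate 1 was also the highest of its group. Krt8 was too low for such a comparison.

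Vimentin (Vim, ENSMUSG00000026728), the type III filament protein of mesenchymal cells, was the most abundant member, by CPM and per kilobase, and was lower with iBRD9. It had 343, 403 and 391 CPM with iBRD9 and 568, 497 and 470 CPM with DMSO. No iBRD9 library reached the lowest DMSO library, and the log2 fold change was -0.43 (SE 0.0894). DMSO replicate 1 was the DMSO library farthest from iBRD9 here, and the value without it was -0.35. The closest genes to Vim by the same distance were Pbk (0.0384), a mitotic kinase gene, Pfn1 (0.0399), the actin-binding protein profilin, and Fam149a (0.0405).

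The partners of vimentin went the other way. Nestin (Nes, ENSMUSG00000004891), a type IV protein of neural and neural crest progenitors, had 95.7, 109.5 and 111 CPM with iBRD9 and 80.3, 71.0 and 67.6 CPM with DMSO. Its groups did not overlap, with a log2 fold change of 0.53 (SE 0.0869). Synemin (Synm, ENSMUSG00000030554), a type IV protein that links filaments to adhesion sites, had 7.99, 7.96 and 8.49 CPM with iBRD9 and 2.73, 3.90 and 3.29 CPM with DMSO. All iBRD9 libraries were above all DMSO libraries, and the log2 fold change of 1.29 (SE 0.146) was second to that of Krt7 among the members. Synm was low but not near the floor with vehicle, at 63 to 99 reads per DMSO library.

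Ratios within a library do not depend on how libraries are scaled. Per kilobase of exon, there were 20.6, 20.1 and 21.0 Nes reads for every 100 Vim reads with iBRD9, and 10.5, 10.6 and 10.6 with DMSO. The DMSO libraries, replicate 1 included, had a narrow spread around their mean (10.5 ± 0.0834, SD, n = 3). For Synm there were 1.39, 1.18 and 1.30 reads per 100 of Vim with iBRD9 and 0.288, 0.470 and 0.418 with DMSO. Both ratios were higher in every iBRD9 library than in any DMSO library.

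The lamins split by type. Lamin B1 (Lmnb1, ENSMUSG00000024590), a B-type lamin that stays farnesylated at the nuclear membrane, had 182, 205 and 207 CPM with iBRD9 and 144, 92.2 and 79.8 CPM with DMSO. The groups did not overlap, but DMSO replicate 1 lay 61.8% of the way, in log2 CPM, from the other DMSO libraries to the iBRD9 mean. The log2 fold change was 0.91 (SE 0.190), and 1.20 without DMSO replicate 1. Lamin A/C (Lmna, ENSMUSG00000028063), whose 2 main products are spliced from a single gene, had 268, 276 and 275 CPM with iBRD9 and 338, 347 and 332 CPM with DMSO. All iBRD9 libraries were lower, within a tight spread in both groups, and the log2 fold change was -0.31 (SE 0.0509), or -0.21 with library size alone.

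Per kilobase there were 134, 146 and 149 Lmnb1 reads for every 100 Lmna reads with iBRD9, and 83.8, 52.4 and 47.3 with DMSO. With the longest transcript as the length of each gene in place of all its exons, the means were 101 ± 5.59 with iBRD9 and 43.1 ± 13.9 with DMSO (SD, n = 3). Each iBRD9 library was above each DMSO library on either length, and with iBRD9 the mean of Lmnb1 was above that of Lmna by more than the spread on all exons alone.

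**Figure D3:**
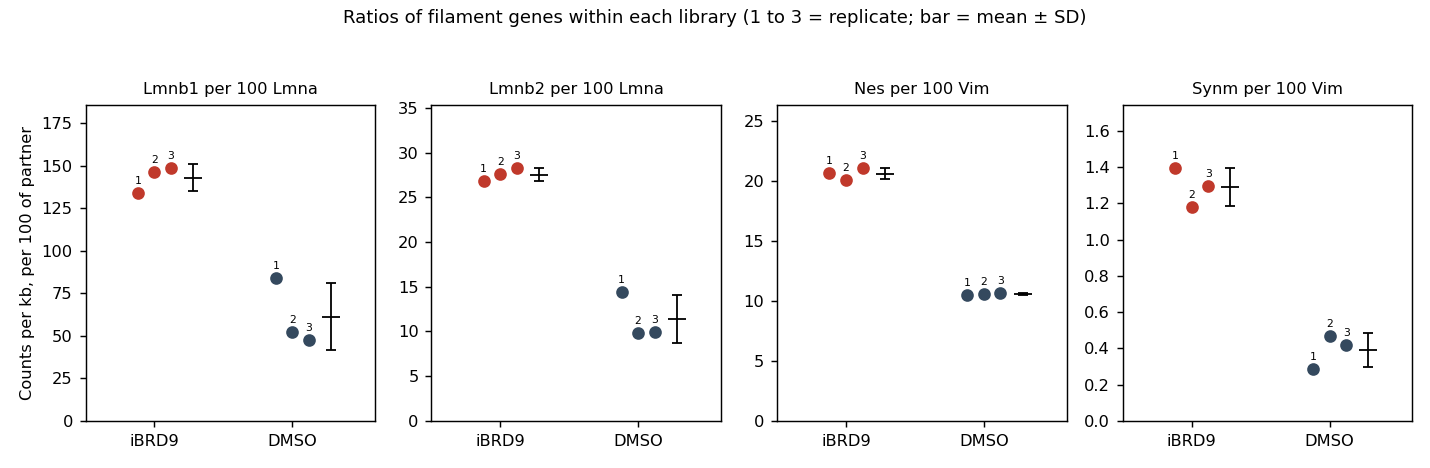
Ratios of reads per kilobase of exon within each library (points, numbered by replicate; iBRD9 in red, DMSO in dark blue), as reads of a gene per 100 of its partner, with the mean ± SD of 3 libraries, on linear axes from 0. Nes per 100 Vim is 20.1 to 21.0 with iBRD9 and 10.5 to 10.6 with DMSO, and Lmnb1 per 100 Lmna is 134 to 149 with iBRD9 and 47.3 to 83.8 with DMSO.

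Levels of different genes were set side by side as CPM per kilobase of exon. With iBRD9 the order was Vim (79.9 ± 6.74), Lmnb1 (66.9 ± 4.71), Lmna (46.8 ± 0.749), Nes (16.4 ± 1.34), Krt80 (1.16 ± 0.0640), Krt7 (1.03 ± 0.0144) and Synm (1.03 ± 0.0371) (SD, n = 3). Krt7 and Synm did not differ beyond their spread there, but on the longest transcript Krt7 (1.78 ± 0.0247) was above Synm (1.04 ± 0.0377) with iBRD9. With DMSO it was Vim (108 ± 10.6), Lmna (58.1 ± 1.26), Lmnb1 (35.5 ± 11.4), Nes (11.4 ± 1.02), Krt80 (0.690 ± 0.0874), Synm (0.417 ± 0.0737) and Krt7 (0.0618 ± 0.0275). Krt18, Krt8 and Krt19 were last in both groups. The same order held on the longest transcript, where Lmnb1 (69.7 ± 4.91) and Lmna (69.1 ± 1.11) with iBRD9 did not differ beyond their spread. Even with iBRD9, Krt7 was thus at a small fraction of the level of Vim, at 1.29% of it per kilobase.

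In all, 7 of the 10 members passed the filter on low counts, and 7 were called, 5 of them higher and 2 lower, beside 60.7% of all tested genes, 29.8% called higher and 30.9% called lower. The groups did not overlap in those 7, nor in 68.0% of all tested genes. The members were chosen on this contrast and Krt7 passed the filter through its iBRD9 libraries, so nothing is read from these counts.

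The 13 other intermediate filament genes included 6 that were tested, of which 3 rose and 2 fell, beside 60.7% called over all genes (median log2 fold change 0.42, against 0.01 over all tested genes). Lmnb2, the other B-type lamin gene, rose alongside Lmnb1, with 55.2 ± 2.24 CPM with iBRD9 and 28.4 ± 6.51 CPM with DMSO (log2 fold change 0.96, SE 0.140, edgeR adjusted p = 0.000568). Per kilobase there were 26.8, 27.6 and 28.2 Lmnb2 reads per 100 of Lmna with iBRD9 and 14.5, 9.81 and 9.94 with DMSO, again with DMSO replicate 1 nearest to iBRD9. Iffo1 (0.67) and Iffo2 (0.67), little studied genes named for a filament-like domain, rose as well. Bfsp2, a filament gene of the eye lens, fell to 3.59 ± 0.285 CPM with iBRD9, against 17.2 ± 2.30 CPM with DMSO (-2.26, SE 0.134, adjusted p = 7.73e-06). Gfap, the type III filament gene of astrocytes and some glia, named after its values were seen, fell at a low level (0.447 ± 0.104 CPM with iBRD9 and 0.874 ± 0.0100 CPM with DMSO, -0.97, adjusted p = 0.0156). It had 11, 14 and 10 reads with iBRD9 and 20, 22 and 21 with DMSO. Gfap passed the filter on low counts through its DMSO libraries, so its call is not read as a finding. Its call was lost without iBRD9 replicate 1 (-0.82, adjusted p = 0.0628) and without iBRD9 replicate 3 (-0.94, adjusted p = 0.0514). By DESeq2's Wald test Gfap had an adjusted p of 0.0602, and the alternatives ranged over 0.0154 to 0.0628. Des, the muscle type III gene, was not called (0.16, SE 0.205, adjusted p = 0.506). The neurofilament genes Nefl and Nefm had at most 1 read in any library. Nefh, too low for the filter, had 6, 4 and 5 reads with iBRD9 and 0, 0 and 1 with DMSO.

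Cytolinkers, large proteins that tie filaments to other structures, and desmosome genes were called in both directions. Of 19 listed, 18 were matched and 12 tested, of which 5 were called higher and 5 lower (median -0.20), beside 29.8% called higher and 30.9% lower over all genes. One of the higher calls, Evpl, passed the filter on low counts through its iBRD9 libraries alone. One of the lower calls, Perp, passed it through its DMSO libraries, with 14, 10 and 7 reads with iBRD9. Neither call is read as a finding. Dst, which anchors filaments to adhesion sites, fell to 178 ± 10.9 CPM with iBRD9, against 297 ± 13.1 CPM with DMSO (-0.74, SE 0.0648, adjusted p = 4.52e-05), and Plec, plectin, which binds vimentin and keratins alike, fell by less (-0.26, adjusted p = 0.0174). Macf1, which links actin and microtubules, rose to 510.5 ± 17.0 CPM with iBRD9, against 359 ± 24.5 CPM with DMSO (0.51, adjusted p = 0.00031). Pkp4 (-0.28) also fell, as did Krtcap2 (-0.66), which is listed though it is neither a cytolinker nor a desmosome gene. Pkp3, a desmosomal plaque gene, rose (1.68 ± 0.357 CPM with iBRD9 and 0.554 ± 0.0438 CPM with DMSO, 1.58), as did Jup, plakoglobin (0.45, adjusted p = 0.0307), and Tchp (0.33), whose product binds keratins. Evpl, envoplakin, which had 16 to 25 reads per iBRD9 library and 1 to 4 per DMSO library, and Perp, which fell at 28 reads or fewer in any library, were named after their values were seen, and Perp was called in 3 of its 11 alternatives. The desmosomal gene Dsp had at most 5 reads in a library, and Dsg2 and Dsc2 had 0. The calls of Jup were lost without DMSO replicate 2 (0.43, adjusted p = 0.0874) and without iBRD9 replicate 3 (0.31, adjusted p = 0.121), and that of Plec without iBRD9 replicate 2 (-0.22, adjusted p = 0.0798) or iBRD9 replicate 3 (-0.24, adjusted p = 0.0704) and with library size alone (-0.15, adjusted p = 0.141); the count of lower genes was 3 without either of these iBRD9 libraries. The adjusted p ran from 0.0127 to 0.121 over the alternatives of Jup and from 0.00139 to 0.141 over those of Plec.

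The genes listed as nuclear lamina partners, not all of them genes of the nuclear envelope, were all tested. Of these 19 genes 6 were called higher and 5 lower (median 0.04). That is 11 called of 19, near the 60.7% called over all genes. Lbr, the lamin B receptor, rose to 218 ± 4.41 CPM with iBRD9, against 125 ± 25.3 CPM with DMSO (0.81, SE 0.124, adjusted p = 0.000731). The nesprin genes, whose products join the nucleus to the cytoskeleton, parted: Syne3 (1.09, SE 0.107, adjusted p = 7.92e-05), whose nesprin binds plectin and so intermediate filaments, and Syne2 (0.59) rose, while Syne1 fell to 28.6 ± 3.02 CPM with iBRD9, against 66.3 ± 14.5 CPM with DMSO (-1.21). Sun1, an inner membrane protein that holds nesprins, rose (0.48). Zmpste24, the protease that trims prelamin A to lamin A, fell to 126 ± 2.92 CPM with iBRD9, against 176 ± 4.82 CPM with DMSO (-0.48, SE 0.0526, adjusted p = 0.000127), as did Narf (-0.54), a binder of prelamin A, and Lemd2 (-0.32, adjusted p = 0.0279). Banf1 (-0.18), named after its values were seen, was the remaining gene that fell, and was called in 7 of its 12 alternatives. Among the genes called higher, Nup153 (0.15, edgeR adjusted p = 0.0436), also named after its values were seen, was called in 5 of its 12 alternatives. Tmpo (0.07, adjusted p = 0.436), a lamin-binding protein gene, and Emd, emerin (-0.17, adjusted p = 0.152), were not called. Without DMSO replicate 2, DMSO replicate 3, iBRD9 replicate 1 or iBRD9 replicate 2 in turn, 3 genes of this list were called lower. Lemd2 lost its call without DMSO replicate 2 (-0.28), DMSO replicate 3 (-0.24), iBRD9 replicate 1 (-0.32), iBRD9 replicate 2 (-0.31) or iBRD9 replicate 3 (-0.34), and with library size alone (-0.21, adjusted p = 0.0796), with adjusted p from 1.43e-08 to 0.0962 over its alternatives.

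**Figure D4:**
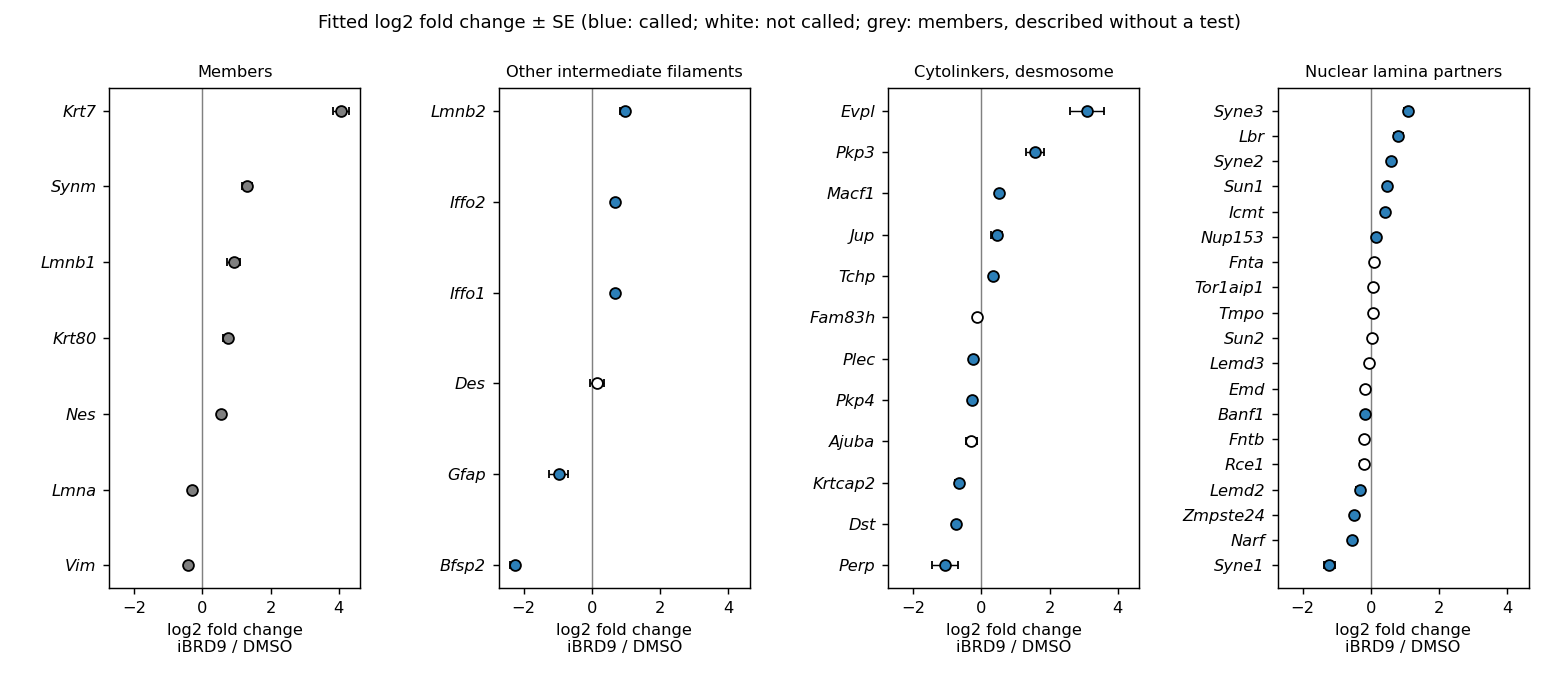
Fitted log2 fold change of iBRD9 over DMSO with its SE for the 7 members that passed the filter on low counts (grey, described without a test) and for the tested genes of the 3 lists (blue, called at an adjusted p under 0.05; white, not called). Krt7 lies at 4.07, Lmnb1 and Lmnb2 at 0.91 and 0.96, Vim and Lmna below 0, and the partner lists hold called genes on both sides of 0.

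Markers of simple epithelia were lower in sum with iBRD9, unlike Krt7, though they did not all go the same way. The 9 simple epithelium markers summed to 5.53 to 6.20 CPM with iBRD9 and 12.8 to 14.8 CPM with DMSO. Of the 4 that were tested, Cdh1, E-cadherin, was lower with iBRD9 (-1.89, SE 0.147, adjusted p = 2.65e-05), and so were Esrp1 (-1.50) and Muc1 (-1.33), while Ovol1, an epithelial transcription factor gene, had 17 to 24 reads per iBRD9 library and 1 to 5 per DMSO library. Ovol1 passed the filter through its iBRD9 libraries alone, so no test of it is read. Epcam, which defines simple epithelia, had 1, 1 and 0 reads with iBRD9 and 0 in each DMSO library. Cldn4, also too low for the filter, had 12, 8 and 6 reads with iBRD9 and 0, 1 and 0 with DMSO. Elf3 had 3, 1 and 1 reads with iBRD9 and 0, 1 and 0 with DMSO. Cldn7 went the other way, with 3, 1 and 2 reads with iBRD9 and 4, 6 and 8 with DMSO. The groups overlapped for Grhl2. The 9 keratinocyte markers summed to 8.32 to 9.71 CPM with iBRD9 and 8.05 to 9.07 CPM with DMSO, with 2 tested and 0 called by edgeR or DESeq2 (Krt10, and Sfn with an edgeR adjusted p = 0.407), and none had an unadjusted p under 0.05. The 4 mesothelium markers summed to 0.0400 to 0.633 CPM with iBRD9 and 0.0422 to 0.391 CPM with DMSO. The 7 fibroblast markers summed to 132 to 146 CPM with iBRD9 and 76.0 to 100.4 CPM with DMSO, of which 6 were tested, 2 rose and 1 fell. Over all genes 60.7% were called, the share to set beside the calls of each marker list here. Most of that sum was Dcn, decorin, which rose to 120 ± 7.09 CPM with iBRD9, against 51.2 ± 7.38 CPM with DMSO (1.23). Of the fibrillar collagen genes, Col1a1 rose (2.36) to 3.52 ± 0.877 CPM with iBRD9, against 0.679 ± 0.0336 CPM with DMSO, and Col1a2 fell (-1.95) to 7.64 ± 0.699 CPM with iBRD9, against 29.6 ± 6.02 CPM with DMSO. The marker genes were named after their values were seen. Their part in the values of Vim, Nes and Synm was not tested.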

How the data were processed

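Counts were deposited by the authors as whole-number reads per Ensembl gene ID for 6 libraries, and were used unchanged. Per the submitters' processing notes, CASAVA 1.8.2, Bowtie2 2.4.5 and the build GRCm39 were used. How reads were counted, with which annotation and strand setting, is not given in the sources used here. Poly(A) RNA was used, per the labels' protocols, and the named kit is not described as marking strand. Of 35275 IDs, 34490 matched a symbol in GENCODE M21, whose build (GRCm38) differs, so it served for names and lengths only.

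Genes were kept by filterByExpr (minimum count 10), scaled by TMM and tested with edgeR 4.0.16 in R 4.3.3 (quasi-likelihood, robust, treatment only, all 6 libraries, Benjamini-Hochberg). Leaving out DMSO replicate 1, DESeq2 1.42.0 and other alternatives are compared at the end. The standard error is the log2 fold change over the root of the F statistic. The labels call the samples independent; p-values measure the spread between them. In simulated counts the procedure recovered most known changes, with a share of unchanged genes among its calls above the nominal level. No replicate pair agreed within sampling noise (chi-square per degree of freedom 1.93 to 37.5). Depth limits genes under about 1 CPM.

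The members and lists were chosen with earlier results of these data known. Named genes are the members, up to 4 higher and 4 lower called genes per list whose average log2 CPM reached 0, and the 3 genes closest to Krt7 and to Vim, of which 1 is not reported here; others are marked as chosen after their values were seen. The listed gene Eppk1 was not analysed here. No column was left out. Figures were drawn with matplotlib 3.10.9.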

Additional observations from a re-analysis of the deposited data

How the results depend on the processing

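The 7 members with a fold change kept their sign in all 84 values from 12 alternatives each, and 2 values moved by more than the SD between replicates: Krt7 without DMSO replicate 1 (4.46) and Lmna with library size alone (-0.21). Lmnb1 alone among them was not called in 1 setting, with no filter (0.91). No other called gene of the lists, markers included, turned its sign, nor did the genes close to Krt7 and Vim (0 of 524 values). All genes gave 6800 to 10159 calls with a library left out. Other keratins had 1 gene called, higher, with no filter, which was Krt17, whose test is not read. Among other intermediate filament genes, 1 was called lower with DESeq2's Wald test or with a filter at 1 CPM in 3 libraries, and 1 to 2 with a library left out. Cytolinkers and desmosome genes had 3 called lower with library size alone, and 3 to 7 with a library left out. Nuclear lamina partners had 3 called lower with library size alone, and 3 to 7 with a library left out. They had 5 to 8 called higher over all the alternatives.

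The sample titles link same-numbered libraries by no more than the number. Their deviations from the group means correlated at 0.118, 0.0599 and 0.0248, which cannot settle whether they were handled together. iBRD9 replicates 1 and 2 correlated best with their own number, and iBRD9 replicate 3 with DMSO replicate 2 (0.0403). With the replicate number as a block, 7937 genes were called, with 5 other intermediate filament genes, 9 cytolinker and desmosome genes and 10 lamina partners among them. Depth limits Krt8, Krt18 and Krt19, for which no fold change can be given.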
